A study of Homo sapiens with 87 samples.

Results

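The comparison described here set HAP1 cells with a SMARCA4 knockout against HAP1 wild type (WT) cells, both carrying the same control knockdown. HAP1 is a near-haploid human cell line that came from a chronic myeloid leukaemia. The members are the libraries that the labels name for these groups, 2 SMARCA4 knockout libraries and 2 WT libraries, which are 4 of the 87 libraries of the series. They belong to a table of 12 libraries in 6 groups of 2. Besides these groups the table holds SMARCA4 knockout cells with a knockdown of ARID2, WT cells with knockdowns of both SMARCA4 and ARID2, ARID2 knockout cells with a knockdown of SMARCA4, and ARID2 knockout cells with the control knockdown. A separate table of 75 libraries in 25 groups of 3 holds knockouts without any knockdown, among them the SMARCA4 clones 2878-4 and 2878-6 and the WT clone C631. The labels do not say which SMARCA4 clone received the control knockdown, and they name the control reagent differently in different fields, so it is called the control knockdown throughout. Nothing in the labels ties the libraries to separate cultures, so the spread behind each p-value is that between the libraries at hand and may be technical. In such bulk RNA, fewer cells of a type and less RNA per cell cannot be told apart.

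SMARCA4, also known as BRG1, is an ATPase of the BAF (SWI/SNF) complexes, which slide and evict nucleosomes and so open or close stretches of chromatin. A BAF complex carries either SMARCA4 or its paralog SMARCA2 as its motor, and ARID2 marks the PBAF form of the complex. Enhancers of developmental, adhesion and matrix genes are known to depend on BAF activity in many cell types, and SMARCA4 is recurrently inactivated in human tumours.

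Poly-A RNA was read as gene-level counts. The library totals were 18822003 and 15122218 in SMARCA4 knockout cells, against 15680952 and 12128660 in WT cells, within a range of 9144150 to 19789622 over the table. Log2 CPM (counts scaled to the library total) correlated with r = 0.985 between the SMARCA4 knockout libraries and r = 0.975 between the WT libraries. The first principal component, with 37.9% of the variance over the 12 libraries, placed the 4 libraries with a SMARCA4 knockout between -53.5 and -45.7 and the other libraries above them, up to 44.2. A set of 9 HAP1 markers summed to 722 and 730 CPM in SMARCA4 knockout cells, against 502 and 471 CPM in WT cells. In a longer list of 12 HAP1 markers, which adds KIT, MME and HMGA2, 4 were called higher (LIN28A, GDF3, L1TD1 and ABL1) and 2 lower (KIT and MME) in SMARCA4 knockout cells by the test described below for all genes. A549, a lung carcinoma line that the growth protocol also names, was looked for with 18 markers, which summed to 186 and 169 CPM in SMARCA4 knockout cells and 145 and 148 CPM in WT cells. Of these, 7 stood at no more than 3 counts in all 4 libraries, among them the surfactant genes SFTPB, SFTPC and SFTPA1. The 11 listed HEK293 markers summed to 86.2 and 88.9 CPM in SMARCA4 knockout cells and 79.1 and 68.4 CPM in WT cells. The 8 fibroblast markers summed to 153 and 117 CPM in SMARCA4 knockout cells and 69.6 and 86.6 CPM in WT cells, with COL1A2 and LUM at no more than 3 counts in all 4 libraries. By the same test, KRT8 (log2 fold change 3.66) was called higher and EPCAM (-2.10) lower among 6 tested A549 markers. PRAME (2.46) and CHGB (1.90) were called higher among 8 tested HEK293 markers, and THY1 (2.69) and COL3A1 (3.59) among 5 tested fibroblast markers. For all these marker counts, the shares over all tested genes were 3.34% called higher and 2.75% called lower. The calls of EPCAM and CHGB were each lost under 6 of 10 alternatives. Both were lost when the fit used only the 4 libraries compared, and without any 1 of those 4 libraries. EPCAM was also lost with DESeq2, and CHGB without the expression filter. The call of COL3A1 was lost without WT replicate 1. The part of other cells in the results was not tested.

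The targeted gene's own mRNA was examined first. SMARCA4 stood at 26.7 and 23.4 CPM in SMARCA4 knockout cells, against 297 and 317 CPM in WT cells. The groups did not overlap, and the gene fell by 3.66 on the log2 scale (SE 0.503, adjusted p = 0.000916, edgeR's quasi-likelihood test with Benjamini-Hochberg adjustment). A residual transcript of this size is a measurement of mRNA only, and protein was not analysed here. WT cells with both knockdowns kept more SMARCA4 mRNA, at 43.1 and 129 CPM, and their 2 libraries lay far apart. SMARCA2, the paralogous ATPase, measured 18.0 and 19.2 CPM in SMARCA4 knockout cells and 8.29 and 17.8 CPM in WT cells, and the difference was not past the test (log2 fold change 0.47, SE 0.348, adjusted p = 0.531). ARID2 measured 50.3 and 31.3 CPM in SMARCA4 knockout cells and 45.1 and 30.9 CPM in WT cells (log2 fold change 0.06, SE 0.313, adjusted p = 0.952).

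**Figure D1:**
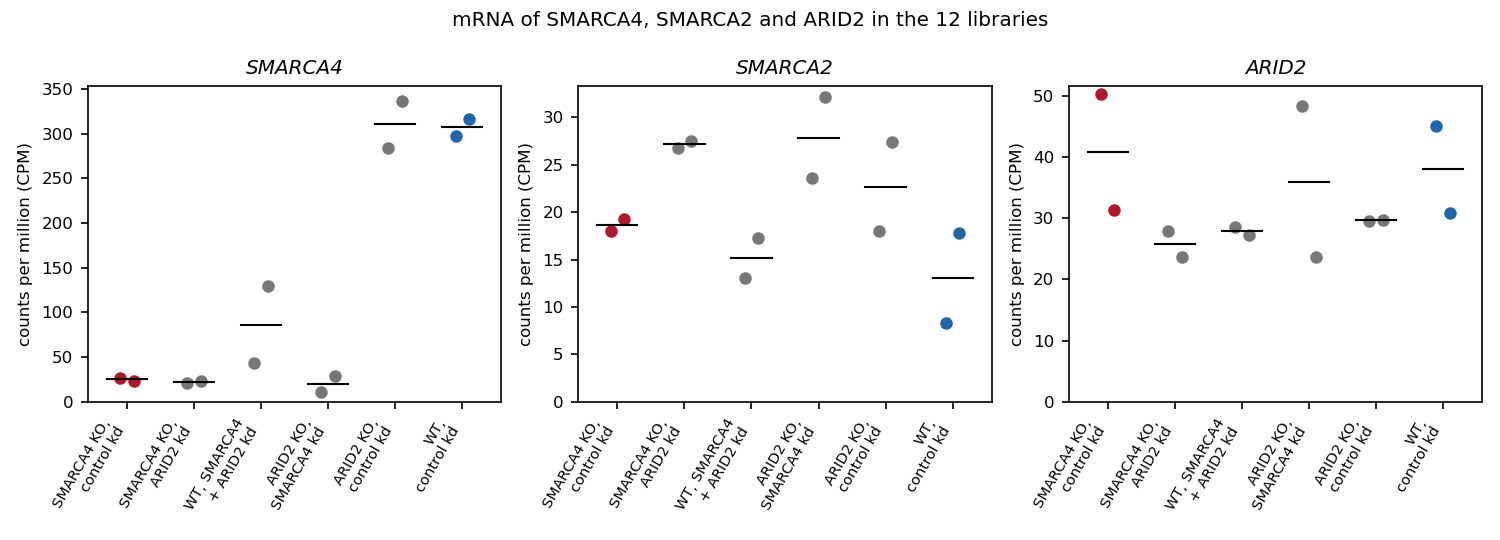
Levels of SMARCA4, SMARCA2 and ARID2 mRNA in CPM in the 6 groups of the table, with 1 point per library and a line at the mean of the 2 libraries (KO, knockout; kd, knockdown). SMARCA4 sits at 26.7 and 23.4 CPM in SMARCA4 knockout cells with the control knockdown, against 297 and 317 CPM in the WT libraries.

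Among the 30 tested genes of BAF subunits, the knocked-out SMARCA4 and 2 others were called lower and 1 was called higher. Over all tested genes, 2.75% were called lower and 3.34% higher by the rule given below. BCL11B, a zinc finger protein that can join BAF, stood at 0.691 and 0.727 CPM in SMARCA4 knockout cells, against 5.93 and 7.67 CPM in WT cells (log2 fold change -3.29, SE 0.369, adjusted p = 0.000243). Its paralog BCL11A stood at 1.86 and 2.65 CPM in SMARCA4 knockout cells, against 9.57 and 9.15 CPM in WT cells (-2.10, SE 0.290, adjusted p = 0.000937). GLTSCR1L, also called BICRAL and a subunit of the noncanonical BAF complex, stood at 30.2 and 29.4 CPM in SMARCA4 knockout cells, against 9.25 and 13.9 CPM in WT cells (1.33, SE 0.237, adjusted p = 0.00482), a call that was lost when the fit used only the 4 libraries compared. The other 26 subunit genes, SMARCA2 included, were not called.

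Of 14601 genes tested, 487 (3.34%) were called higher and 402 (2.75%) lower in SMARCA4 knockout cells than in WT cells, 889 (6.09%) in all. To be called, a gene had to reach an adjusted p of 0.05 or less and a change of 1 or more on the log2 scale in either direction. The adjusted p alone was passed by 620 genes (4.25%) that were higher and 526 (3.6%) that were lower. The median log2 fold change over all tested genes was -0.01. Single libraries bore on these counts. Without WT replicate 1 there were 310 genes called higher and 422 called lower, without SMARCA4 knockout replicate 2 there were 322 and 289, and without SMARCA4 knockout replicate 1 there were 382 and 247.

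**Figure D2:**
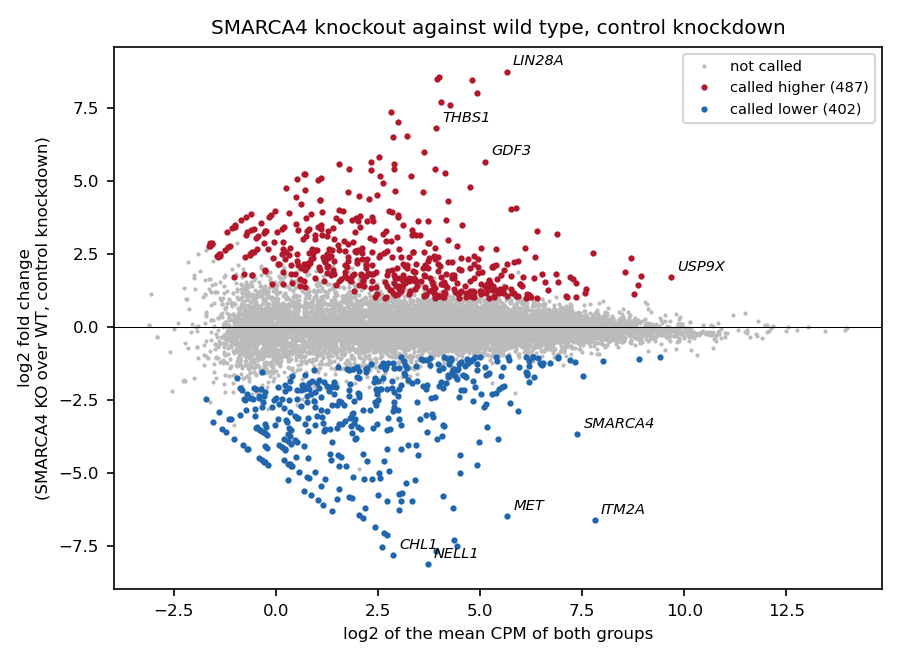
Log2 fold change of SMARCA4 knockout over WT (vertical axis) against the log2 of the mean CPM of both groups (horizontal axis), with 1 point per tested gene. The 487 genes called higher are red, the 402 called lower are blue and the rest are grey; the diagonal edges at low CPM are genes at or near the lowest value of the table in one of the groups.

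The genes that rose most were, in order, LIN28A, PDE3A, DPPA3, POSTN, PI15, SCN3A, AQP4, CNTN6, TACR1, THBS1, SNCAIP and FST, with fitted log2 fold changes of 6.52 to 8.76 and adjusted p of at most 0.000147. The WT libraries held only 1 to 5 counts of each, so the order and the sizes are uncertain. LIN28A, an RNA-binding protein that blocks let-7 maturation in stem cells, stood at 105 and 94.8 CPM in SMARCA4 knockout cells, against 0.255 and 0.165 CPM in WT cells (8.76, SE 0.366). DPPA3, an oocyte and pluripotency factor also called STELLA, stood at 30.9 and 30.0 CPM in SMARCA4 knockout cells, while both WT libraries were at the lowest value of the table, 1 count. Taking 3 counts per library as the floor, DPPA3 was at least 139-fold higher in SMARCA4 knockout cells, although reads from its near-identical pseudogenes could be counted with it. PDE3A, a phosphodiesterase that degrades cyclic AMP, stood at 27.7 and 35.5 CPM in SMARCA4 knockout cells and also at 1 count in each WT library, so that it was at least 144-fold higher.

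POSTN, THBS1, PI15 and FST encode secreted proteins. Few counts stood behind the WT values given next, so the sizes of these fold changes are imprecise. The WT libraries held 2 and 2 counts of POSTN, FST and SCN3A, and 3 and 3 of PI15. They held 3 and 2 counts of AQP4, 2 and 3 of SNCAIP, and 5 and 2 of THBS1. POSTN, a matricellular protein, measured 55.7 and 55.7 CPM in SMARCA4 knockout cells, against 0.128 and 0.165 CPM in WT cells (8.47, SE 0.356). THBS1, or thrombospondin-1, measured 39.2 and 21.0 CPM in SMARCA4 knockout cells, against 0.319 and 0.165 CPM in WT cells (6.82, SE 0.524). PI15, a secreted peptidase inhibitor, measured 77.3 and 44.0 CPM in SMARCA4 knockout cells, against 0.191 and 0.247 CPM in WT cells (8.04, SE 0.488). In none of these genes did a knockout library come near a WT library. FST, the activin antagonist follistatin, measured 19.2 and 9.52 CPM in SMARCA4 knockout cells, against 0.128 and 0.165 CPM in WT cells (6.52, SE 0.683). The sodium channel gene SCN3A measured 24.3 and 41.7 CPM in SMARCA4 knockout cells, against 0.128 and 0.165 CPM in WT cells (7.71, SE 0.722). AQP4, the water channel of astrocytes, measured 35.8 and 40.4 CPM in SMARCA4 knockout cells, against 0.191 and 0.165 CPM in WT cells (7.62, SE 0.394). CNTN6, a neural adhesion molecule, stood at 12.4 and 15.5 CPM in SMARCA4 knockout cells and at 1 count in each WT library, at least 63.6-fold higher. TACR1, the substance P receptor, measured 10.0 and 21.6 CPM in SMARCA4 knockout cells, where the WT libraries held 2 and 1 counts, and SNCAIP, which encodes the synuclein-binding protein synphilin-1, measured 16.9 and 19.8 CPM in SMARCA4 knockout cells, against 0.128 and 0.247 CPM in WT cells.

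Promoter sequences of some of these genes are shown because TEAD factors and AP-1, known partners of BAF at enhancers, have short motifs that can be read in them. The windows hold 300 bases around the start site, most of them upstream, in RefSeq (GRCh38.p14), and are read 5′ to 3′ on the gene's strand. Capitals mark a match to the TEAD motif GGAATG or the AP-1 motif TGANTCA on either strand; the motifs cannot share a match. The examples were chosen after the matches were known: POSTN lies at chr13:37598719-37599018 on the minus strand, CNTN6 at chr3:1092774-1093073 and THBS1 at chr15:39580829-39581128 on the plus strand, and MME, one of the genes that fell most, at chr3:155079422-155079721 on the plus strand.
POSTN: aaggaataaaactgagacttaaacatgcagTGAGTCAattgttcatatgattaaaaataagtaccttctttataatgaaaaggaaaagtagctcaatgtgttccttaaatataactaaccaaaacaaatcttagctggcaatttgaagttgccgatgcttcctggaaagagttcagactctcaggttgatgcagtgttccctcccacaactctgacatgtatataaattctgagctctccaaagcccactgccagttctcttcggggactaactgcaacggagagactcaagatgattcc
CNTN6: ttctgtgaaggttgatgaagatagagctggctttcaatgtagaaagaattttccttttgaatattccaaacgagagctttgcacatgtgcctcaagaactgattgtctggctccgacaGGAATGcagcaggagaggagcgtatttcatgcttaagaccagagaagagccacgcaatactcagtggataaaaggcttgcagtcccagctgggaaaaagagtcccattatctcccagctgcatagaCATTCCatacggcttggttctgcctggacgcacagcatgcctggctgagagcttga
THBS1: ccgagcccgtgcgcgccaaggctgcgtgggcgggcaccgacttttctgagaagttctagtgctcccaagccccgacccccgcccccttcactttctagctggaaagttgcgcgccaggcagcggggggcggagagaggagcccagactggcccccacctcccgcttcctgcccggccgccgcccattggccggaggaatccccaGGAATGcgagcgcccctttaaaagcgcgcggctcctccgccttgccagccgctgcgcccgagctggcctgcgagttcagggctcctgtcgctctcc
MME: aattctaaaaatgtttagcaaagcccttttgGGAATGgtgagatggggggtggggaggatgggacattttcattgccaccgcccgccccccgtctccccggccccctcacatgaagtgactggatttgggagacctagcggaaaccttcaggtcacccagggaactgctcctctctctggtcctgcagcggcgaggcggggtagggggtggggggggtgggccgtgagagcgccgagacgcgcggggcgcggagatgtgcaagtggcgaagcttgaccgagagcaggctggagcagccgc

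Of the 12 leading higher genes, 9 had a promoter in the RefSeq table; 4 of these held the TEAD motif and 3 the AP-1 motif, while of the 9 leading lower genes with a promoter 1 held each. Over the called genes, the TEAD motif stood in 12.3% of 333 promoters of genes called higher and 10.6% of 292 promoters of genes called lower, against 10.4% of 10058 promoters of tested genes and 14.0% of all 27305 promoters. The AP-1 motif stood in 7.21% and 6.85% of promoters of genes called higher and called lower, against 4.43% over tested genes and 7.76% over all promoters. The RUNX motif TGTGGT stood in 10.2% and 11.3%, against 9.02% over tested genes, and the SRF CArG box in 1.8% and 1.03%, against 0.984%. Promoters of genes called higher and lower held a median of 22 and 21.5 CpG dinucleotides, against 26 over tested genes. These shares are descriptions, and a match is not a bound site.

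Among the 12 genes that fell most were NELL1, CHL1, MME, COL11A1, HCLS1, GALNT5, FASTKD2, CNTNAP2, ITM2A, STAC and MET, with log2 fold changes of -8.12 to -6.45 and adjusted p of at most 0.000121. The call of each of the 24 leading genes held under every alternative that was run, the removal of single libraries included. ITM2A, a membrane protein that GATA factors induce, had the deepest counts behind it and stood at 4.62 and 4.83 CPM in SMARCA4 knockout cells, against 432 and 449 CPM in WT cells (-6.59, SE 0.216, adjusted p = 5.37e-08). MET, the hepatocyte growth factor receptor, stood at 1.43 and 0.860 CPM in SMARCA4 knockout cells, against 96.5 and 103 CPM in WT cells (-6.45, SE 0.360). HCLS1, a cortactin-like protein of blood cells, stood at 0.213 and 0.265 CPM in SMARCA4 knockout cells, against 47.8 and 38.1 CPM in WT cells (-7.50, SE 0.490). MME, the surface peptidase neprilysin or CD10, stood at 0.213 and 0.0661 CPM in SMARCA4 knockout cells, against 33.9 and 26.6 CPM in WT cells (-7.65, SE 0.774). In each of these genes both WT libraries lay far above both knockout libraries; HCLS1 and MME were near the lowest value of the table in the knockout libraries, whereas ITM2A and MET were still detected there.

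NELL1, a secreted protein with thrombospondin-like domains, held 2 and 1 counts in SMARCA4 knockout cells, against 20.9 and 31.4 CPM in WT cells. CHL1, a neural cell adhesion molecule, and COL11A1, a fibrillar collagen chain, were at 1 count in both SMARCA4 knockout libraries. CHL1 measured 18.2 and 10.8 CPM in WT cells and COL11A1 9.95 and 13.9 CPM, so that CHL1 was at least 81.2-fold and COL11A1 at least 66.8-fold lower in SMARCA4 knockout cells. GALNT5, which starts O-linked glycans, measured 0.266 and 0.265 CPM in SMARCA4 knockout cells, against 29.1 and 52.6 CPM in WT cells. FASTKD2, a mitochondrial RNA-binding protein, measured 0.106 and 0.0661 CPM in SMARCA4 knockout cells, against 10.6 and 14.3 CPM in WT cells. CNTNAP2, a neurexin-like adhesion protein, measured 0.0531 and 0.132 CPM in SMARCA4 knockout cells, against 10.5 and 10.9 CPM in WT cells, and STAC, an adaptor of calcium channels, 0.106 and 0.0661 CPM in SMARCA4 knockout cells, against 6.25 and 11.0 CPM in WT cells.

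**Figure D3:**
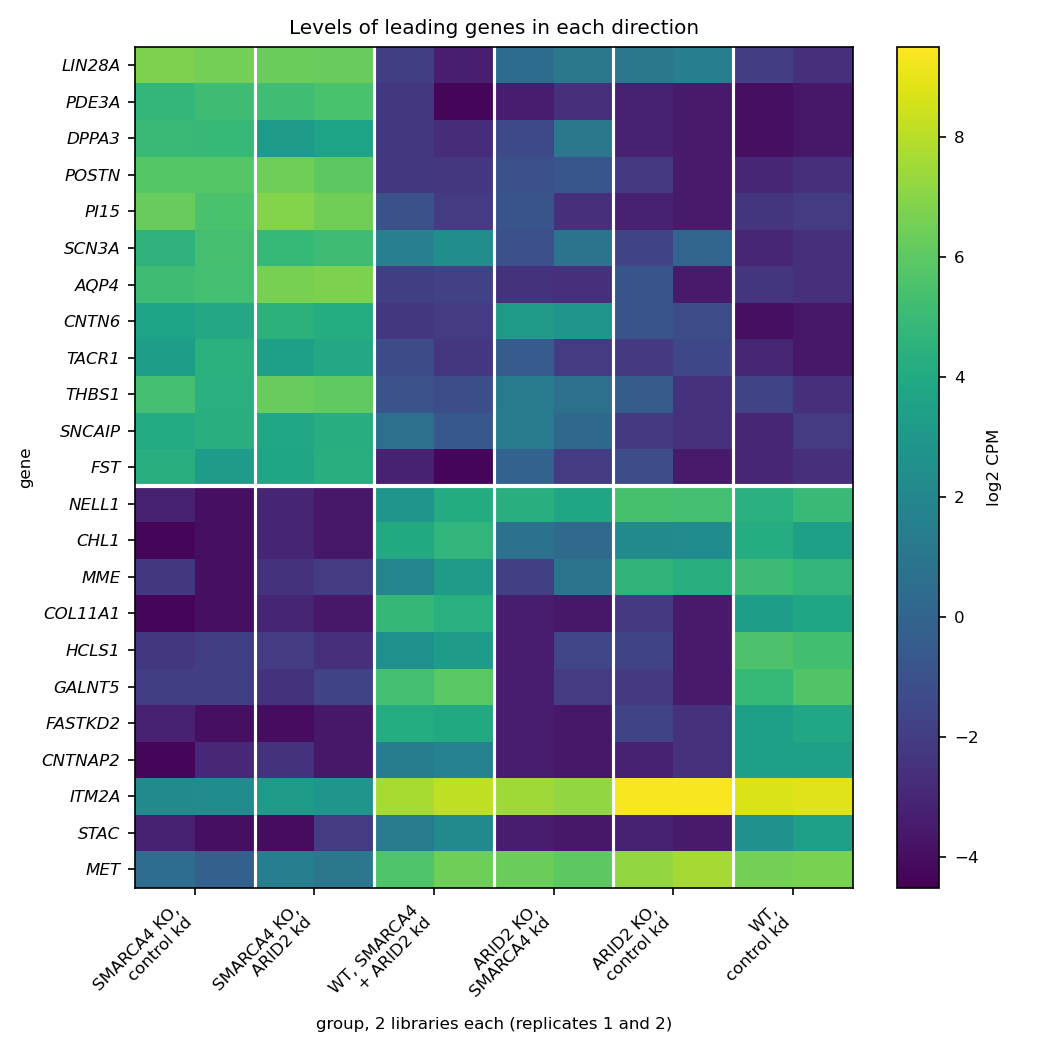
Log2 CPM (colour) of the 12 genes that rose most (upper block) and 11 of those that fell most (lower block) in each of the 12 libraries, grouped in pairs of replicates 1 and 2 (KO, knockout; kd, knockdown). Each gene shown separates the SMARCA4 knockout libraries at the left from the WT libraries with the control knockdown at the right, and 6 of the lower genes are also near the bottom of the scale in ARID2 knockout cells.

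The SMARCA4 knockout was also compared directly with the other single-gene knockout of the table, ARID2, under the same control knockdown. The same 2 SMARCA4 knockout libraries enter this contrast and the one above. Against ARID2 knockout cells, 522 genes (3.58%) were called higher and 296 (2.03%) lower in SMARCA4 knockout cells, 5.6% of all tested genes together. The largest increases over ARID2 knockout cells were those of PI15 (log2 fold change 9.11), POSTN (8.43), PDE3A (8.16), DPPA3 (8.11) and EFS (8.06). EFS, a docking protein of SRC family kinases, stood at 58.4 and 54.6 CPM in SMARCA4 knockout cells and 0.219 and 0.178 CPM in ARID2 knockout cells, with 8.04 and 8.74 CPM in WT cells. The largest decreases were those of NELL1 (-8.76), GABRA5 (-8.36), WBP5 (-8.04), MET (-7.25) and MME (-7.19). GABRA5, a GABA-A receptor subunit, stood at 0.531 and 0.331 CPM in SMARCA4 knockout cells and 141 and 146 CPM in ARID2 knockout cells, and WT cells lay between them at 15.6 and 19.8 CPM. Without ARID2 knockout replicate 1 there were 243 genes called higher and 206 called lower, without ARID2 knockout replicate 2 there were 283 and 177, without SMARCA4 knockout replicate 1 there were 422 and 158, and without SMARCA4 knockout replicate 2 there were 292 and 166.

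All 12 leading higher genes were called higher in SMARCA4 knockout cells than in ARID2 knockout cells as well, by 4.76 to 9.11 on the log2 scale. Because the same SMARCA4 knockout libraries served to choose the leading genes, this is not a separate test of them. Of the 12 leading lower genes, 6 were called lower than in ARID2 knockout cells. The other 6, COL11A1, HCLS1, GALNT5, FASTKD2, CNTNAP2 and STAC, were not called between the knockouts. HCLS1 stood at 0.213 and 0.265 CPM in SMARCA4 knockout cells and 0.328 and 0.0889 CPM in ARID2 knockout cells (0.21, adjusted p = 0.938), and GALNT5 at 0.266 and 0.265 CPM in SMARCA4 knockout cells and 0.219 and 0.0889 CPM in ARID2 knockout cells (0.77, adjusted p = 0.738). At these levels, a few counts per library, a difference between the knockouts was not detectable at this depth.

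The direct contrast with WT cells in which SMARCA4 and ARID2 had both been knocked down gave 451 genes (3.09%) called higher and 248 (1.7%) called lower in SMARCA4 knockout cells, together 4.79%. LIN28A (9.00), POSTN (7.97), PDE3A (7.80), FST (7.35) and PI15 (7.31) led the higher genes. COL11A1 (-8.52), CHL1 (-8.34), GALNT5 (-7.54), HRASLS5 (-7.53) and FASTKD2 (-7.49) led the lower genes. HRASLS5, a phospholipid-modifying enzyme, held 1 and 2 counts in SMARCA4 knockout cells, against 22.1 and 13.2 CPM in the doubly knocked-down cells. Each of the 24 leading genes was called between these groups too, in the direction it had against WT cells with the control knockdown, with log2 fold changes of 2.98 to 9.00 for the higher and -8.52 to -4.93 for the lower genes. The leading genes were chosen with the same SMARCA4 knockout libraries, so these calls are not a separate test of them. SMARCA4 itself was lower in the knockout than in the doubly knocked-down cells (-1.82, adjusted p = 0.0474). Without replicate 1 of the doubly knocked-down cells there were 206 genes called higher and 206 called lower, without SMARCA4 knockout replicate 2 there were 252 and 154, and without SMARCA4 knockout replicate 1 there were 372 and 145.

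Matrix genes moved in both directions. For these lists and those below, the shares over all tested genes were 3.34% called higher and 2.75% called lower. Of 35 collagen chains 21 were tested, with 4 called higher, 5 lower and a median log2 fold change of 0.03, against -0.01 over all tested genes. COL5A2, a regulatory chain of fibrillar collagen, stood at 117 and 107 CPM in SMARCA4 knockout cells, against 7.65 and 5.11 CPM in WT cells (4.07, SE 0.249). COL9A1 (3.76), COL3A1 (3.59) and COL5A3 (2.49) were also called higher, although COL3A1 and COL5A3 were at low levels, between 1.06 and 1.45 CPM in SMARCA4 knockout cells, and their calls were lost without WT replicate 1, which left 2. The call of COL5A3 was also lost without SMARCA4 knockout replicate 2, with DESeq2 and when the fit used only the 4 libraries compared. COL11A1, COL25A1 (-4.58), the basement membrane chains COL4A3 (-4.01) and COL4A4 (-2.10) and COL2A1 (-1.09) were called lower; without SMARCA4 knockout replicate 1 there were 3. Of 35 tested laminins, nidogens and matricellular proteins, 9 were called higher and 6 lower (median 0.20). SPARCL1 stood at 17.1 and 21.3 CPM in SMARCA4 knockout cells, against 0.638 and 0.330 CPM in WT cells (5.20, SE 0.423), and LTBP1, which tethers latent TGF-beta to the matrix, rose by 3.15. Fibronectin, FN1, stood at 152 and 84.6 CPM in SMARCA4 knockout cells, against 18.0 and 17.1 CPM in WT cells (2.71, SE 0.572, adjusted p = 0.0127); it was picked out after its values were seen, and its call was lost without SMARCA4 knockout replicate 1 or either WT replicate. THBS2, the paralog of THBS1, went the other way, at 2.02 and 2.58 CPM in SMARCA4 knockout cells, against 84.9 and 31.7 CPM in WT cells (-4.71, SE 0.536). PXDN, a peroxidase that crosslinks collagen IV, was at 1 count in both SMARCA4 knockout libraries and at 4.91 and 5.36 CPM in WT cells, at least 28.7-fold lower. The lower calls numbered 2 without SMARCA4 knockout replicate 1, and 3 without SMARCA4 knockout replicate 2 or WT replicate 2.

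Genes tied to contractile and mesenchymal states changed for a minority of members. Of 35 tested genes of the actin cytoskeleton and SRF targets, 5 were called higher and 3 lower (median 0.10), against 3.34% and 2.75% over all tested genes. TPM2, a muscle-type tropomyosin, stood at 96.6 and 108 CPM in SMARCA4 knockout cells, against 4.78 and 7.34 CPM in WT cells (4.04, SE 0.249), and CNN1, or calponin, rose by 3.89 to 2.34 and 4.50 CPM. ACTG2, the enteric smooth muscle actin, was at 0.106 and 0.132 CPM in SMARCA4 knockout cells, against 3.12 and 1.32 CPM in WT cells (-4.20, SE 0.599), and TAGLN2 fell by 1.16. Without SMARCA4 knockout replicate 1 there were 2 called higher, and without WT replicate 2 there were 3. Of 15 tested fibroblast and mesenchymal genes, THY1 (2.69) and the receptor kinase AXL (2.21) were called higher and S100A4 (-2.45) lower, with a median of 0.55. The call of AXL was lost without WT replicate 1 and that of S100A4 without any of SMARCA4 knockout replicate 1, SMARCA4 knockout replicate 2 and WT replicate 1.

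Of 23 tested YAP and TEAD targets, 7 were called higher and 2 lower (median 0.01), against 3.34% and 2.75% over all tested genes. MYOF stood at 12.1 and 17.1 CPM in SMARCA4 knockout cells, against 0.319 and 0.247 CPM in WT cells (5.58, SE 1.25, adjusted p = 0.0176), and ANKRD1 at 5.63 and 2.38 CPM, against 0.0638 and 0.330 CPM in WT cells (4.36, SE 1.03, adjusted p = 0.0238). The classical targets CYR61 and CTGF rose by 1.83 and 1.78 on the log2 scale. These calls rested on few libraries: 1 remained without WT replicate 1, 3 without SMARCA4 knockout replicate 1 and 3 without WT replicate 2, and the calls of MYOF, ANKRD1 and F3 were each lost on leaving out any 1 of 3 libraries.

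Several feedback genes of the ERK pathway rose. Of 32 tested immediate early and ERK feedback genes, 9 were called higher and 0 lower by edgeR (median 0.21), against 3.34% and 2.75% over all tested genes. Among the lower ones, 1 had an unadjusted p under 0.05, and it passed the adjusted p but not the fold threshold. DESeq2 called 0 lower. The ETS factors ETV4 and ETV5, both induced by FGF and ERK signalling, stood at 21.0 and 17.7 CPM and at 14.1 and 11.4 CPM in SMARCA4 knockout cells, against 2.04 and 2.14 CPM and 1.08 and 0.412 CPM in WT cells (3.16 and 3.99, SE 0.314 and 0.422). SPRY4, which dampens receptor kinase signalling, measured 4.46 and 3.50 CPM in SMARCA4 knockout cells, against 2 and 1 counts in WT cells, a count ratio of 37.4 with a 95% counting interval of 12.5 to 184. DUSP6, a phosphatase of ERK, measured 2.39 and 2.31 CPM in SMARCA4 knockout cells, against 0.128 and 0.165 CPM in WT cells (3.91, SE 0.632). EGR1 (1.92) and JUN (1.25) were called higher, while FOS (0.27) and MYC (-0.94) were not called. The listed relatives of SPRY4, namely SPRY1 (0.44), SPRY2 (-0.08), SPRED1 (0.03) and SPRED2 (-0.15), were not called either. Nor were the listed relatives of DUSP6, namely DUSP1 (-0.11), DUSP4 (0.31) and DUSP5 (0.80). Without SMARCA4 knockout replicate 2, 5 were called higher, and without WT replicate 1, 1 was called lower.

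**Figure D4:**
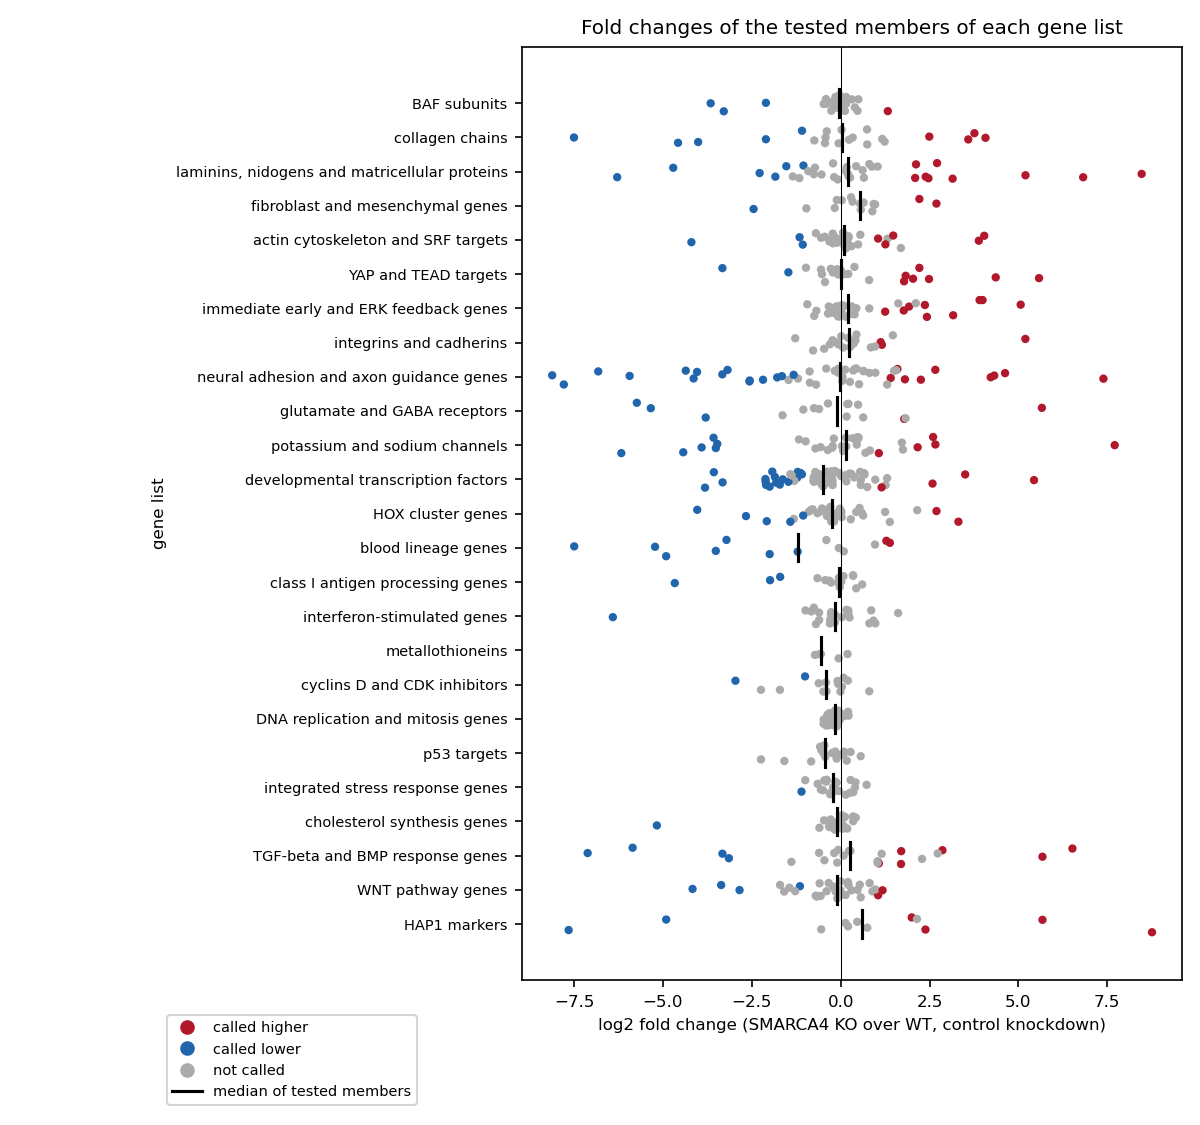
Log2 fold change of SMARCA4 knockout over WT for each tested member of 25 gene lists (1 point per gene), with a black line at the median of each list. Red and blue points are members called higher and lower; neural adhesion, channel and matrix lists spread to both sides, while DNA replication and mitosis genes lie between -0.48 and 0.22.

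Genes of neural adhesion and axon guidance moved in both directions. Of 48 tested members, 9 were called higher and 15 lower, where 6.09% of all tested genes were called, with a median of -0.01 that equals the one over all tested genes. Beside CNTN6, its relative CNTN4 (4.22), the guidance receptors EPHA7 (4.32) and EPHA3 (1.81), the semaphorins SEMA6D (4.62) and SEMA3C (2.66) and netrin-1 (NTN1, 2.26) rose. EPHA7 stood at 47.8 and 23.0 CPM in SMARCA4 knockout cells, against 1.85 and 1.57 CPM in WT cells (SE 0.449). Beside NELL1, CHL1 and CNTNAP2, the midline repellent SLIT3 (-5.94), the neurexin NRXN2 (-4.36), the semaphorins SEMA3D (-4.14) and SEMA3A (-3.33) and the secreted RELN (-4.04) fell. SLIT3 stood at 0.159 and 0.397 CPM in SMARCA4 knockout cells, against 8.74 and 24.2 CPM in WT cells (SE 0.741).

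Receptors and channels of excitable cells also moved in both directions. Of 16 tested glutamate and GABA receptor genes, 2 were called higher and 3 lower (median -0.10), against 3.34% and 2.75% over all tested genes. The AMPA receptor subunit GRIA3 stood at 8.29 and 11.5 CPM in SMARCA4 knockout cells, against 0.128 and 0.247 CPM in WT cells (5.66, SE 0.435), whereas GRIA2 of the same family stood at 0.584 and 0.463 CPM, against 6.31 and 8.16 CPM in WT cells (-3.80, SE 0.429). The kainate receptor subunit GRIK2 (-5.74) and GABRA5 (-5.34) fell, and the NMDA receptor subunit GRIN2D rose (1.79). Of 33 tested potassium and sodium channel genes, 5 were called higher and 6 lower (median 0.15). KCNK2, a leak potassium channel, stood at 0.531 and 0.595 CPM in SMARCA4 knockout cells, against 44.2 and 35.5 CPM in WT cells (-6.17, SE 0.404). SCN3A, SCN9A (2.66), KCNJ12 (2.60) and SCN8A (1.07) were among those called higher, and without WT replicate 1 or WT replicate 2 the higher calls numbered 3.

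Transcription factors of development held more lower than higher calls, where 2.75% of all tested genes were called lower and 3.34% higher. Of 69 tested factors 4 were called higher and 17 lower, and the median was -0.49; without SMARCA4 knockout replicate 2, 10 were called lower. FOXA1, a pioneer factor of endoderm, stood at 6.22 and 5.55 CPM in SMARCA4 knockout cells, against 71.8 and 89.5 CPM in WT cells (-3.82, SE 0.348, adjusted p = 6.22e-05). EN1, a homeodomain factor of the midbrain and hindbrain, stood at 0.425 and 0.727 CPM in SMARCA4 knockout cells, against 4.97 and 6.18 CPM in WT cells (-3.32, SE 0.361), and the heart and forelimb factor TBX5 at 18.3 and 17.1 CPM, against 48.2 and 58.0 CPM in WT cells (-1.63, SE 0.219). GATA5 (3.50), a factor of heart and gut, and TFAP2A (1.15), a factor of the neural crest, were among those that rose; the call of TFAP2A was lost without any 1 of the 4 libraries. Of 34 tested HOX cluster genes 2 were called higher, the adjacent HOXD11 (3.31) and HOXD10 (2.70), and 5 lower, led by HOXC11 (-4.04) and HOXC10 (-2.66), with a median of -0.25. Without WT replicate 1 the higher calls were 0, and the lower calls were 2 without SMARCA4 knockout replicate 1 and 3 without SMARCA4 knockout replicate 2 or WT replicate 2.

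Genes of the blood lineage, from which the HAP1 line came, were examined as a list. Of 13 tested blood lineage genes, 7 were called lower and 2 higher, with a median of -1.21, against 2.75% and 3.34% over all tested genes. Beside HCLS1, the stem cell factor receptor KIT stood at 0.372 and 0.529 CPM in SMARCA4 knockout cells, against 7.78 and 18.7 CPM in WT cells (-4.91, SE 0.530). The adhesion receptor CD44 was at 1 count in both SMARCA4 knockout libraries and at 3.51 and 1.32 CPM in WT cells, at least 13.5-fold lower. The blood transcription factors FLI1 (-3.51), RUNX1 (-3.21), GATA2 (-1.21) and MYB fell, RUNX1 with a call that 3 of the 4 single-library removals ended, whereas TAL1, another factor of blood stem cells, stood at 52.4 and 65.6 CPM in SMARCA4 knockout cells, against 25.3 and 21.6 CPM in WT cells (1.29, SE 0.219, adjusted p = 0.00353). LYL1, the paralog of TAL1, was called higher (1.38), and its call was lost without any 1 of the 4 libraries. The lower calls numbered 4 without SMARCA4 knockout replicate 2.

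Genes of TGF-beta and BMP signalling and of WNT signalling moved in both directions. Of 24 tested TGF-beta and BMP response genes, 6 were called higher and 4 lower (median 0.25), against 6.09% called in either direction over all tested genes. FST and GDF3 (5.68) led the higher ones, and BMP2 (-5.85) was among the lower ones; BMP2 stood at 0.106 and 0.132 CPM in SMARCA4 knockout cells, against 4.46 and 9.81 CPM in WT cells (SE 0.614). The higher calls numbered 3 without SMARCA4 knockout replicate 2 or WT replicate 1. Of 36 tested WNT pathway genes, 2 were called higher and 4 lower (median -0.10). The secreted antagonist SFRP1 stood at 2.02 and 4.30 CPM in SMARCA4 knockout cells, against 24.7 and 37.8 CPM in WT cells (-3.36, SE 0.518), and the nuclear effector LEF1 fell by 2.85. The receptor genes LGR4 (1.18) and LRP6 (1.05) were called higher, but 0 calls were left without WT replicate 1, when 7 genes were called lower. Of 22 tested integrins and cadherins, 3 were called higher and 0 lower by edgeR (median 0.24); among the lower ones, 1 had an unadjusted p under 0.05 and DESeq2 called 0. CDH4, or R-cadherin, stood at 12.0 and 10.6 CPM in SMARCA4 knockout cells, against 0.191 and 0.412 CPM in WT cells (5.20, SE 0.540), while the call of ITGA1 (1.16) was lost without any 1 of the 4 libraries and that of ITGA6 (1.13) without either SMARCA4 knockout library or WT replicate 1, and both were lost when the fit used only those 4 libraries.

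For the lists of housekeeping and stress genes the counts are read against the 6.09% called over all tested genes, and a list with 1 call among 23 or 25 members is near that share. Of 36 tested DNA replication and mitosis genes, edgeR called 0 in either direction (range -0.48 to 0.22, median -0.16), with 0 higher and 7 lower at an unadjusted p under 0.05, and DESeq2 called 0. Small decreases prevailed in this list: 32 of the 36 lay below 0, and 1 lower gene passed the adjusted p but not the fold threshold. Of 15 tested D cyclins and CDK inhibitors with their kinases, CCND2 was lower, at 2.82 and 3.84 CPM in SMARCA4 knockout cells, against 18.0 and 32.2 CPM in WT cells (-2.96, SE 0.482), and CDK6 lay at the fold threshold, where 7 alternatives ended its call. Of 16 tested class I antigen processing genes, 3 were called lower, among them the immunoproteasome subunit PSMB8 with 1 and 2 counts in SMARCA4 knockout cells, against 1.40 and 3.46 CPM in WT cells; the calls numbered 1 without SMARCA4 knockout replicate 1, SMARCA4 knockout replicate 2 or WT replicate 2. Among 23 tested interferon-stimulated genes, IFITM1 was called lower, with 1 and 2 counts in SMARCA4 knockout cells, against 3.89 and 12.3 CPM in WT cells, and 3 genes were called lower without WT replicate 2. Of 25 tested cholesterol synthesis genes 1 was called, in the lower direction (median -0.11). SHMT2 (-1.10) was the only call among 25 tested integrated stress response genes, and its call was lost without SMARCA4 knockout replicate 1 or WT replicate 2. Of 5 tested metallothioneins, edgeR and DESeq2 called 0, with 1 at an unadjusted p under 0.05 (median -0.56).

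Of 19 tested p53 targets, edgeR called 0, with 1 lower at an unadjusted p under 0.05, and DESeq2 called 0 (median -0.43). The libraries differed inside each group here. CDKN1A, the CDK inhibitor p21, stood at 34.9 and 5.89 CPM in SMARCA4 knockout cells, against 168 and 20.7 CPM in WT cells (-2.24, SE 1.83, adjusted p = 0.593). The library numbered 1 was above the library numbered 2 in both groups, and within either number the SMARCA4 knockout library was the lower one. MDM2 showed the same split between libraries, at 114 and 44.2 CPM in SMARCA4 knockout cells and 175 and 43.1 CPM in WT cells (-0.50, SE 0.802, adjusted p = 0.819). In all 6 groups of the table, 12 of the 19 p53 targets were higher in the library numbered 1, which was so for 11.0% of all tested genes. What the library number marks is not stated in the labels. In a fit with the library number as a block, CDKN1A (-2.14, adjusted p = 0.0156) and BTG2 (-1.46, adjusted p = 0.0490) passed the test as lower in SMARCA4 knockout cells. BTG2, an antiproliferative p53 target, stood at 15.9 and 57.8 CPM in SMARCA4 knockout cells, against 33.9 and 179 CPM in WT cells, with the library numbered 2 the higher one in both groups (-1.58, SE 0.929, adjusted p = 0.402 without the block). In the separate knockout table CDKN1A had log2 fold changes of -2.86 and -2.51 in clones 2878-4 and 2878-6 and did not pass the test in either (adjusted p = 0.171 and 0.233). CDKN1A, MDM2 and BTG2 were picked out after their values were seen.

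LIN28A and its companions of the germ line and of pluripotent cells were followed by position as well, with neighbours taken among 13042 tested genes that the RefSeq annotation places, 6.53% of them called. GDF3, DPPA3, NANOG and SLC2A3 follow one another on chromosome 12 and all were higher; NANOG and SLC2A3 were picked out after their values were seen. GDF3, a TGF-beta family ligand of pluripotent cells, stood at 62.7 and 74.1 CPM in SMARCA4 knockout cells, against 1.40 and 1.15 CPM in WT cells (5.68, SE 0.320). The pluripotency factor NANOG stood at 2.66 and 2.91 CPM in SMARCA4 knockout cells and at 1 count in each WT library, at least 12.7-fold higher, with the same reservation about pseudogene reads as for DPPA3. The glucose transporter gene SLC2A3 stood at 116 and 192 CPM in SMARCA4 knockout cells, against 9.25 and 20.9 CPM in WT cells (3.32, SE 0.493). POU5F1 (OCT4) was not called (-0.33), and neither were SOX2 (-0.71), LIN28B (0.47), DPPA4 (0.21) and SALL4 (2.15). L1TD1 (2.39) was called higher and TFAP2C (-1.82) lower, so the listed genes of this kind did not move together. On chromosome 3, CHL1 fell beside CNTN6 and CNTN4, which rose. Of 13018 pairs of adjacent genes over the genome, 102 were both called, 69 in the same direction and 33 in opposite directions. A neighbour called in the same direction was found for 131 called genes, 15.4% of those placed. A gene can have 2 neighbours, so this share cannot be read against the 6.53% called. Whether called genes lie together more often than other genes was not tested. COL3A1 and COL5A2, COL4A3 and COL4A4, APOE (4.82) and APOC1 (1.65), and SEMA3A and SEMA3D were further such pairs. APOE and APOC1 were picked out after their values were seen, and the call of APOC1 was lost without SMARCA4 knockout replicate 1 or either WT replicate. Medians by chromosome lay between -0.09 (chromosome 18) and 0.05 (chromosome 19).

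The comparison was then set beside the SMARCA4 clones of the other table, which have their own WT libraries and no knockdown. That table was tested within itself, with 11.3% and 10.2% of 16159 genes called in either direction in clones 2878-4 and 2878-6. Of these 16159 genes, 728 were called higher in both clones and 612 were called lower in both. Of the 487 genes called higher here, 482 were tested there, and 330 (68.5%) were called higher in both clones. Of the 402 called lower, 298 (74.1%) were called lower in both. Read the other way, the genes called here made up 50.2% of the 658 genes called higher in both clones and tested here, and 55.7% of the 535 called lower. The clones called 92 of the higher and 62 of the lower genes in neither, and clone 2878-4 called 6 and 5 of them in the opposite direction and clone 2878-6 2 and 1. The count shared in the higher direction rested on WT replicate 1, without which it was 211. All 24 leading genes were called in the same direction in both clones.

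**Figure D5:**
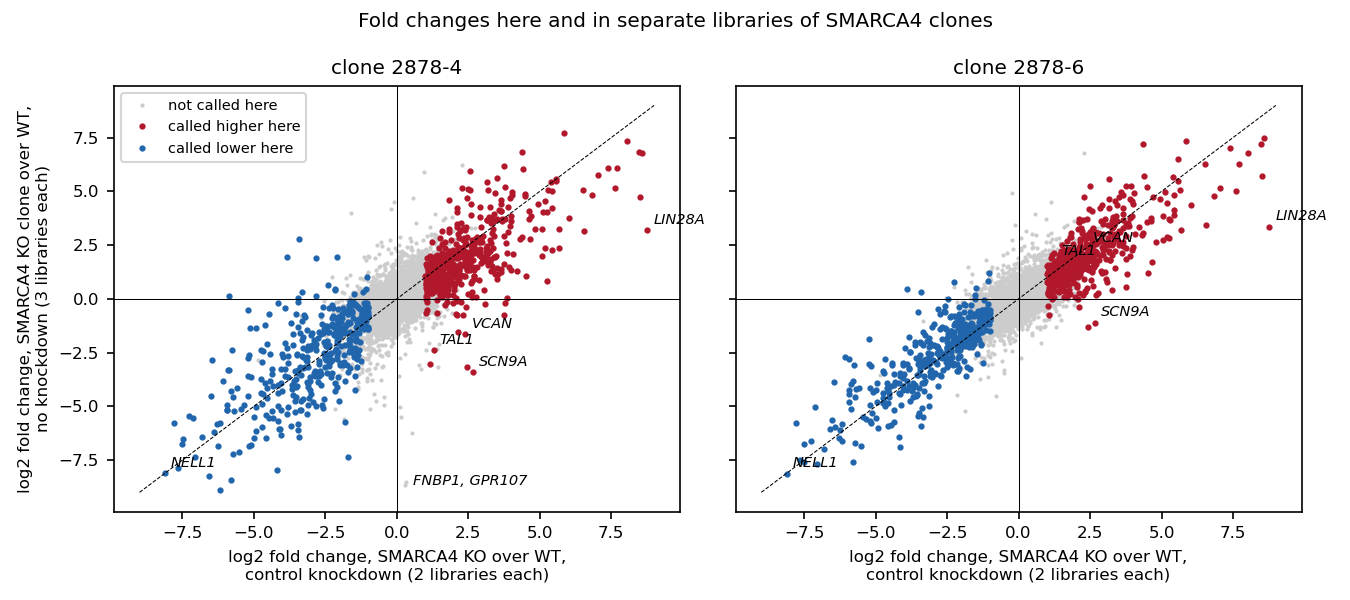
Log2 fold change of SMARCA4 knockout over WT under the control knockdown (horizontal axis, 2 libraries a group) against that of clone 2878-4 (left) and clone 2878-6 (right) over WT without a knockdown (vertical axis, 3 libraries a group), with 1 point per gene tested in both tables and a dashed line of equality. Genes called here lie mostly along the line in both panels; FNBP1 and GPR107 fall to -8.66 and -8.52 in clone 2878-4 and stay near 0 here.

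Across 14574 genes tested in both tables, which are not independent replicates, the fold changes here correlated with r = 0.753 with those of clone 2878-4 and r = 0.835 with those of clone 2878-6. Of 251 genes called between the clones and tested here, 210 had a fold change here that was nearer to that of clone 2878-6 and 41 nearer to that of clone 2878-4, with median gaps of 0.552 and 1.77. FNBP1, an F-BAR protein that bends membranes, and GPR107, also on chromosome 9, were picked out after their values were seen. FNBP1 stood at 66.4 and 59.6 CPM in SMARCA4 knockout cells here, against 43.9 and 56.5 CPM in WT cells (0.28, adjusted p = 0.659), and its log2 fold change was -8.66 in clone 2878-4 and 0.31 in clone 2878-6. GPR107 had a log2 fold change of 0.33 here, -8.52 in clone 2878-4 and 0.04 in clone 2878-6. The matrix proteoglycan gene VCAN, at 39.1 and 38.4 CPM in SMARCA4 knockout cells here, against 6.50 and 7.83 CPM in WT cells (2.39, SE 0.259), was called lower in clone 2878-4 (-1.64) and higher in clone 2878-6 (2.35). TAL1 (1.29 here) gave -2.39 and 1.76 in the same order. The labels assign no clone to the libraries described here, and none is assigned from these values.

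Some levels differed between the tables although the direction did not, with the reservation that the tables were scaled separately. LIN28A averaged 99.9 ± 7.11 CPM (SD, n = 2) in SMARCA4 knockout cells here and 0.210 ± 0.0638 CPM in WT cells, whereas in the other table it averaged 323 ± 11.8 and 366 ± 10.6 CPM (SD, n = 3) in clones 2878-4 and 2878-6 and 35.8 ± 5.40 CPM in WT cells. Its fold change was thus 8.76 on the log2 scale here, and 3.19 and 3.36 in the clones. THBS1 averaged 0.242 CPM in WT cells here and 15.0 CPM in WT cells of the other table, with log2 fold changes of 6.82 here and 4.85 and 4.77 in the clones. DPPA3 differed on the knockout side, at 30.4 CPM in SMARCA4 knockout cells here and at 1.45 and 2.82 CPM in clones 2878-4 and 2878-6, with WT cells near the lowest value of either table.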

How the data were processed

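Poly-A RNA was made into stranded TruSeq libraries and read as 50-base single reads on a HiSeq 3000, per the labels' protocols. The authors deposited estimated counts per gene, whole numbers with a lowest value of 1; the submitters' processing notes name Trimmomatic, Bowtie, Picard, DESeq2 and the GRCh37 (hg19) build. Tool versions, the counting step, its annotation and its use of strand are, in the sources used here, not given, so overlapping genes, antisense genes and near-identical copies are uncertain. A table of quantile-normalized values was not used, nor were 3 columns of the knockout table that matched no labelled sample.

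Counts were tested with edgeR 4.0.16 in R 4.3.3 (filterByExpr, TMM scaling, robust quasi-likelihood fit with 1 term per group over the 12 libraries of the table, Benjamini-Hochberg adjustment over all tested genes). Every adjusted p in the text comes from this test, except where the block or other alternatives are named. The 12 libraries share 1 estimate of the spread. The knockout table was fitted on its own in the same way. CPM is the count divided by the library total. SE is the absolute log2 fold change divided by the square root of the test's F statistic. It is thus derived from the test, and it can understate the error of genes with few counts in a group. Bounds use a floor of 3 counts per library, and the 95% intervals of count ratios are exact and cover counting error only. Named genes were those called, without overlap between groups, averaging 5 CPM or more where they were higher, and with the largest changes (12 in each direction, 5 for each direct contrast), together with SMARCA4, SMARCA2, ARID2, called BAF subunits and up to 4 called members of each of 27 lists in each direction; other genes were named to fill out a list, from its called members, or as said in the text. Some genes that the rule names are not reported here. The members and lists were chosen with earlier results of these data known. Alternatives were DESeq2 1.42.0, its size factors, no filter, the minimum subtracted, only the libraries compared, a replicate block and single libraries left out. The procedure was tested on simulated data. Promoters were taken from RefSeq (GRCh38.p14) by symbol.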

Additional observations from a re-analysis of the deposited data

Results flagged for a closer look

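For 4 flagged genes the sign of the change differed between these libraries and the SMARCA4 clones of the separate table, with every library on its side in each table. They are examples and not a count over all genes. Of the called genes tested there, 457 of 482 higher and 384 of 402 lower ones had the same sign in both clones. The difference itself was not tested, and the tables were scaled separately. CSRP1, a LIM protein of the actin cytoskeleton, stood at 21.6 and 15.7 CPM in SMARCA4 knockout cells, against 46.7 and 29.2 CPM in WT cells, a log2 fold change of -1.07, and gave 0.46 and 0.84 in clones 2878-4 and 2878-6. SCN9A, a sodium channel of pain neurons, stood at 3.77 and 6.35 CPM in SMARCA4 knockout cells, against 0.638 and 0.907 CPM in WT cells (2.66), and gave -3.41 and -1.11 in the clones. SLC10A2, the ileal bile acid transporter, stood at 0.797 and 0.463 CPM in SMARCA4 knockout cells, against 0.128 and 0.0824 CPM in WT cells (2.44), with a count ratio of 6.01 (95% counting interval 1.80 to 31.4), and gave -3.16 and -1.33 in the clones. TNFRSF19, a receptor also called TROY, stood at 8.61 and 9.65 CPM in SMARCA4 knockout cells, against 14.5 and 22.1 CPM in WT cells (-1.05), and gave 1.01 and 1.21 in the clones. The calls of CSRP1, SLC10A2 and TNFRSF19 were each lost on leaving out any 1 of 3 libraries, and that of SCN9A without WT replicate 1.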

How the results depend on the processing

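No gene called between SMARCA4 knockout and WT cells changed sign under any alternative that was run. With only the 4 libraries compared, 308 genes were called higher and 271 lower, against 487 and 402 with all 12 libraries. Leaving out single libraries gave 310 to 408 genes called higher and 247 to 422 called lower. Members of all lists gave 52 to 62 higher and 62 to 84 lower calls, against 77 and 88, and SMARCA4 gave -3.75 to -3.56. The calls shared with both clones ranged from 211 to 332 in the higher and 202 to 296 in the lower direction. Against ARID2 knockout cells, 243 to 422 genes were called higher and 158 to 206 lower. Against WT cells with both knockdowns, 206 to 372 were called higher and 145 to 206 lower. Same-numbered libraries of SMARCA4 knockout and WT cells deviated together (r = 0.527). Over the 15 pairs of groups in the table, r was 0.0909 to 0.527, and 13 were above 0.1. The labels do not say that the number pairs the libraries, and the 2 groups compared hold 2 pairs only. The main fit does not include the number. With the replicate block, 638 genes were called higher and 557 lower against WT cells, 729 and 385 against ARID2 knockout cells, and 650 and 326 against WT cells with both knockdowns. In the block fit CDKN1A reached -2.14 (adjusted p = 0.0156, from edgeR; 0.396 to 0.994 under its other alternatives) and BTG2 -1.46 (0.0490; 0.194 to 0.983). With 2 libraries a group, genes near 1 count are limited by depth.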

Other observations

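Library number went with the level of some gene groups across the whole table, SMARCA4 knockout and WT libraries included. Of 19 p53 targets, 12 (63.2%) were higher in the library numbered 1 than in the library numbered 2 in all 6 groups and 0 were lower in all; over the 14601 tested genes the shares were 11.0% and 8.79%. CDKN1A stood at 38.3 and 8.26 CPM in SMARCA4 knockout cells with the ARID2 knockdown, 143 and 16.3 CPM in WT cells with both knockdowns, and 160 and 8.00 CPM in ARID2 knockout cells. Of 25 cholesterol synthesis genes, 11 (44.0%) were lower in the library numbered 1 in all 6 groups. The source of the split was not tested.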
